A study of Mus musculus with 6 samples.

Results

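Txnip, 4 of the related Arrdc genes and the cytosolic and mitochondrial thioredoxins with their reductases were followed in the frontal cortex of mice treated with SAHA. These 9 genes were listed by family name, and all 9 were found among the 19938 genes measured. Each has a single probe set with its symbol. The family was chosen by gene family, with the log2 differences between SAHA and saline known. The members' differences are therefore given as a description, with their errors and without a test. SAHA (suberoylanilide hydroxamic acid, vorinostat) is an inhibitor of zinc-dependent histone deacetylases. The SAHA group held 3 samples from wild-type 129S6/SvEv mice aged 8 to 12 weeks, given 20 mg per kg by intraperitoneal injection over 21 days. The saline group held 3 samples from mice of the same strain, genotype and age given vehicle over the same period. Frontal cortex of both sides was taken 1 day after the last injection, and RNA from each sample was hybridised to 1 whole-transcript array. The labels do not say that each sample came from a separate mouse, so all errors and p-values reflect the variation among these arrays, part of which may be technical.

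Thioredoxins are small proteins that reduce disulfide bonds in other proteins, and thioredoxin reductases return them to the reduced state with electrons from NADPH. Txnip, the thioredoxin-interacting protein, binds reduced thioredoxin and blocks it, and also promotes the removal of glucose transporters from the cell surface. By sequence it is an alpha-arrestin, a family that also holds the Arrdc proteins. Members of this family are known to recruit ubiquitin ligases to membrane cargo through PPxY motifs. In cultured human cancer cells SAHA is known to raise TXNIP transcripts and to lower those of thioredoxin.

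The median log2 signal lay between 6.72 and 6.75 on the SAHA arrays and between 6.66 and 6.71 on the saline arrays. Markers of excitatory neurons were bright, with Camk2a at a mean log2 signal of 12.36 in SAHA and 12.38 in saline, and Slc17a7 at 10.54 and 10.43. No other brain region was compared, so these values do not test the frontal cortex label. A library of each group stood apart in sex-linked transcripts. The Y-linked Kdm5d had a log2 signal of 7.23 in SAHA replicate 3, while the other 5 libraries had 7.90 to 8.11. Xist had 10.91 in saline replicate 1, while the other 5 had 4.63 to 4.88. The Y-linked Eif2s3y and Uty were at 7.80 and 6.74 in SAHA replicate 3, and at 9.20 and 8.19 in saline replicate 1. Saline replicate 1 thus had both Xist and Y-linked signal, and the reason was not tested. Each member's difference is therefore also given, in the text or in the plot of differences, without saline replicate 1 and SAHA replicate 3. In the fit across all genes (limma, Benjamini-Hochberg adjustment), 0 of 19938 genes passed an adjusted p of 0.05, or 0%, with a lowest adjusted p of 0.116. At an unadjusted p under 0.05 there were 3472 genes, or 17.4%, of which 2364 were higher in SAHA (11.9% of all genes) and 1108 lower (5.56%).

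Txnip was the member that differed most between the groups. Its log2 signal was 6.96, 6.86 and 6.93 in SAHA replicates 1 to 3, against 7.17, 7.23 and 7.16 in saline replicates 1 to 3. All SAHA values lay below all saline values, with a gap of 0.20 between the highest SAHA and the lowest saline array, while the SAHA arrays spanned 0.096 and the saline arrays 0.067. The means were 6.91 ± 0.049 in SAHA and 7.19 ± 0.035 in saline (SD, n = 3 each). The difference, SAHA minus saline, was -0.27 on the log2 scale (SE 0.059, unadjusted 95% interval -0.41 to -0.14). On the linear scale the SAHA signal was 82.8% of the saline signal, with an interval of 75.4% to 91.0%. Without saline replicate 1 and SAHA replicate 3 the difference was -0.28 (SE 0.082). Txnip lies on chromosome 3, at positions 96557957 to 96561857 of GRCm38.p6. In whole tissue, fewer cells of a type and less RNA per cell cannot be told apart.

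**Figure D1:**
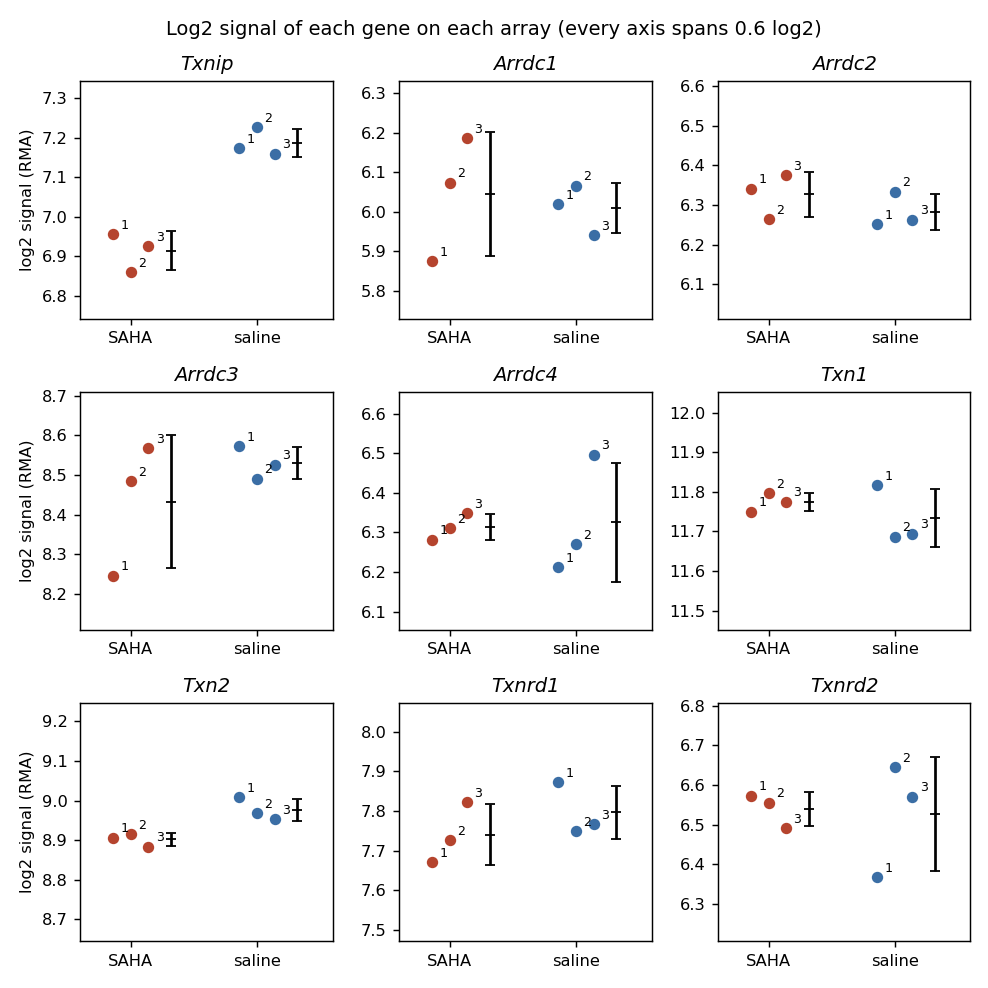
Log2 signal of each of the 9 genes on each array, SAHA left and saline right, with replicate numbers beside the points and the mean with its SD (n = 3) beside each group. Every vertical axis spans the same width, and the 3 SAHA values of Txnip, between 6.86 and 6.96, lie below its saline values, between 7.16 and 7.23.

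Txnip and Arrdc4 are both known targets of the glucose-sensing factors MondoA and ChREBP, which bind carbohydrate response elements with their partner Mlx. Their promoters are shown because both genes are placed under the same factors (the Arrdc4 values are given below). The sequences are the 250 bases before the annotated start, 5′ to 3′ on the gene's own strand, from RefSeq on GRCm38.p6. Capitals mark the carbohydrate response element, the E-box CACGTG and each CCAAT box, on either strand.
Txnip, chr3:96557707-96557956, plus strand: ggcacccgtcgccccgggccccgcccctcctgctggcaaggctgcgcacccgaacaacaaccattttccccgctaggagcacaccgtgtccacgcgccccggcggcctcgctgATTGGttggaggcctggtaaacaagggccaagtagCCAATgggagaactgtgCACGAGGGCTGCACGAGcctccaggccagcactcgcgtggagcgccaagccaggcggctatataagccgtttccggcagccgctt
Arrdc4, chr7:68749239-68749488, minus strand: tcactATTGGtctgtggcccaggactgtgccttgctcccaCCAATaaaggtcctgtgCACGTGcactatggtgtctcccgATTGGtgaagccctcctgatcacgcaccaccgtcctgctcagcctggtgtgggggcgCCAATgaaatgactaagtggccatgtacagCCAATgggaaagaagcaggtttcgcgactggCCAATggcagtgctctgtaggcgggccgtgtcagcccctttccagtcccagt
The carbohydrate response element was searched as CACGNG, then 5 bases of any kind, then CNCGNG, on both strands. The Txnip window holds 1 match, at positions -85 to -69 counted from the start, which is on the gene's strand and overlaps no other motif searched. Matches occur in 92 of the 32851 promoter windows of the same length in the table, or 0.28%. Other spellings of the element were not searched, so the matches and this share hold for these letters alone. The Arrdc4 window holds no match in these letters and 1 E-box CACGTG, a motif found in 6.02% of windows. CCAAT boxes, the site of the factor NF-Y, number 2 in Txnip and 6 in Arrdc4, and 33.8% of all windows hold at least 1.

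The forkhead site GTAAACA, found in 3.17% of windows, lies at positions -121 to -115 of Txnip, between its CCAAT boxes, and in no window of the other members. The core of the antioxidant response element, TGACNNNGC, found in 10.2% of windows, has 1 match in Arrdc4 and 1 in the window of the second of the 3 annotated starts of Txnrd1, which encodes the cytosolic reductase. The GC box GGGCGG, bound by Sp1 and found in 32.7% of windows, has 4 matches each in Txn1 and Arrdc2, and 3 of those in Arrdc2 follow each other, each sharing its last base with the next. All 9 genes matched a promoter in the table, in 13 windows. These matches describe letters in the windows and no binding was measured.

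**Figure D2:**
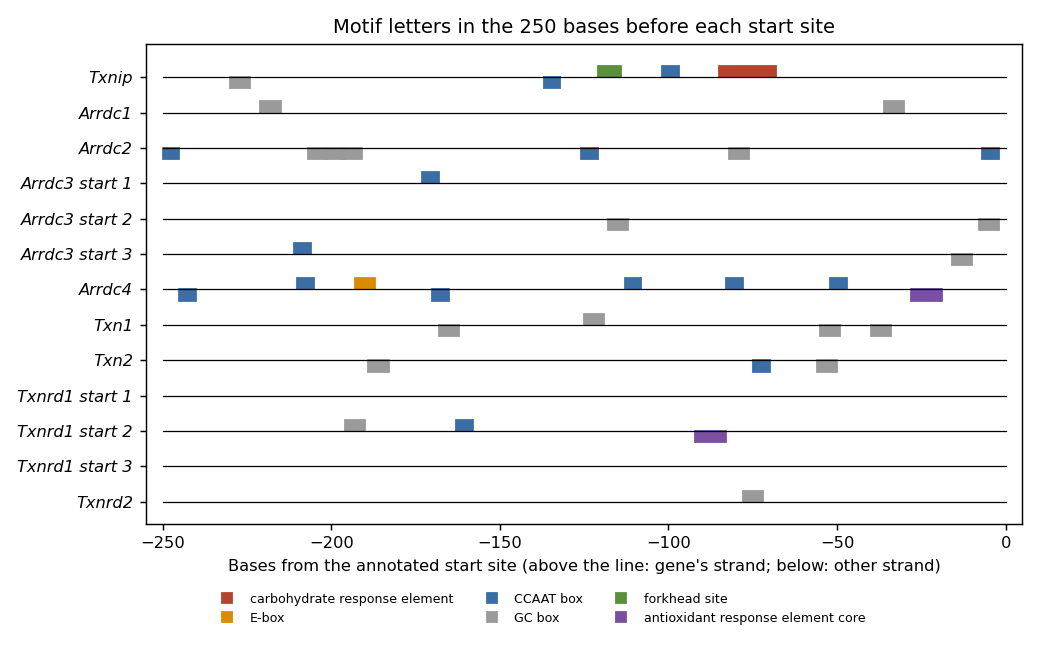
Positions of the 6 motifs in the 250 bases before each annotated start of the 9 genes, in bases from the start, drawn above the line for the gene's strand and below it for the other strand. In the letters searched, the carbohydrate response element, at -85 to -69, is in the Txnip window alone among the 13 windows.

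Arrdc1 to Arrdc4 had differences between -0.097 and 0.044, with overlapping groups for each. Arrdc5, a further Arrdc gene that is not among the 9, was dim and was at 5.52, 5.26 and 5.64 in SAHA, against 5.82, 5.65 and 5.59 in saline. Its groups overlapped too, and its difference of -0.21 (SE 0.11) lay nearer to that of Txnip than those of Arrdc1 to Arrdc4, at -0.10 without SAHA replicate 2 and -0.31 after quantile normalization. Arrdc4, the alpha-arrestin that like Txnip responds to glucose, was at 6.28, 6.31 and 6.35 in SAHA and at 6.21, 6.27 and 6.50 in saline. The SAHA values lay within the saline range, whose top was set by saline replicate 3. Its difference was -0.012 (SE 0.083, interval -0.20 to 0.18), which was 0.073 without saline replicate 3, -0.069 without saline replicate 1, -0.10 after quantile normalization and -0.087 without saline replicate 1 and SAHA replicate 3.

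Arrdc3, an adaptor known for the ubiquitination of the beta2-adrenergic receptor, was at 8.25, 8.49 and 8.57 in SAHA, against 8.57, 8.49 and 8.53 in saline. SAHA replicate 1 lay well below the saline range, with SAHA replicate 2 at its lower edge and SAHA replicate 3 near its top. The difference was -0.097 (SE 0.089, interval -0.30 to 0.11), and it was -0.0035 without SAHA replicate 1, -0.16 without SAHA replicate 3 and -0.043 after quantile normalization. Arrdc1, which is known to recruit the budding machinery at the plasma membrane and to drive the release of extracellular vesicles, was at 5.87, 6.07 and 6.19 in SAHA and at 6.02, 6.07 and 5.94 in saline. The SAHA arrays reached beyond the saline range on both sides, and SAHA replicate 1 was again the lowest. The difference was 0.036 (SE 0.088, interval -0.17 to 0.24), and it was 0.12 without SAHA replicate 1, -0.035 without SAHA replicate 3 and -0.0033 after centring each array. Arrdc2 was at 6.34, 6.26 and 6.38 in SAHA, against 6.25, 6.33 and 6.26 in saline. Its values spanned 0.12 over all 6 arrays, with a difference of 0.044 (SE 0.061, interval -0.096 to 0.18), which lay between 0.020 and 0.075 with 1 library left out. The signs of Arrdc1 and Arrdc2 turned after quantile normalization, at -0.059 and -0.046, and after cyclic loess normalization, at -0.064 and -0.043. The intervals of Arrdc1, Arrdc2 and Arrdc4 end above the Txnip difference of -0.27, while that of Arrdc3 reaches past it. A difference between Txnip and its relatives was not tested.

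Of the thioredoxins, Txn1, the cytosolic and nuclear protein that Txnip binds, was at 11.75, 11.80 and 11.77 in SAHA, against 11.82, 11.69 and 11.69 in saline. The SAHA values lay within the saline range, with saline replicate 1 as the highest array. The difference was 0.041 (SE 0.062, interval -0.10 to 0.18), and 0.083 without saline replicate 1 and SAHA replicate 3, with values between 0.018 and 0.084 when 1 library was left out. Txn2, the mitochondrial thioredoxin encoded in the nucleus, was at 8.91, 8.92 and 8.88 in SAHA and at 9.01, 8.97 and 8.95 in saline. All SAHA values were below all saline values, but by a gap of only 0.038. The difference was -0.075 (SE 0.055, interval -0.20 to 0.052), or -0.017 on quantile-normalized values and -0.050 without saline replicate 1 and SAHA replicate 3. Txn1 and Txn2 thus had differences of opposite sign, each with an interval that includes 0.

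The reductases, selenoproteins that reduce thioredoxin, had overlapping groups. Txnrd1, the cytosolic enzyme, was at 7.67, 7.73 and 7.82 in SAHA, against 7.87, 7.75 and 7.77 in saline. Its difference was -0.056 (SE 0.068, interval -0.21 to 0.10), and it was -0.018 without saline replicate 1, -0.022 without SAHA replicate 1, -0.097 without SAHA replicate 3 and -0.028 after quantile normalization. Txnrd2, the mitochondrial enzyme, was at 6.57, 6.55 and 6.49 in SAHA, against 6.37, 6.65 and 6.57 in saline. Saline replicate 1 was its lowest array. Its difference of 0.012 (SE 0.082, interval -0.18 to 0.20) became -0.068 without that array, -0.044 without it and SAHA replicate 3, and -0.067 after quantile normalization.

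**Figure D3:**
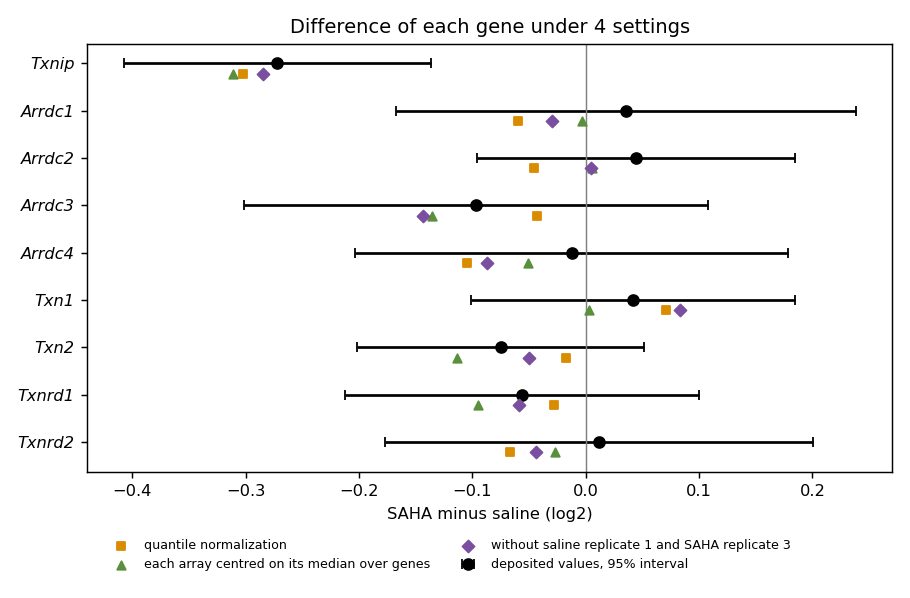
SAHA minus saline on the log2 scale for each gene. Black points with bars are the deposited values with the unadjusted 95% interval of the limma fit, and coloured symbols are the difference after quantile normalization, after centring each array and without 2 libraries. Txnip lies between -0.31 and -0.27 in all 4 settings shown, and the intervals of the other 8 genes include 0.

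Over the 9 members, 5 were lower and 4 higher in SAHA, and the median difference was -0.012, where all genes had a median of 0.011 with 47.1% lower. Groups did not overlap for 2 members, Txnip and Txn2, both lower in SAHA. Among all genes 23.9% had groups that did not overlap, 10.4% lower and 13.6% higher in SAHA. These counts are a description, since the genes were chosen with these values known. The Txnip difference stood at percentile 1.79 of the differences of all genes, and the other 8 members stood between percentiles 19.2 and 59.1.

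The sign of a difference went with signal over the whole table, so each member is also placed beside genes of like signal. Txnip lay in decile 6 of the genes by mean signal, where the median difference was 0.019. Arrdc2, Arrdc4 and Txnrd2 lay in decile 4, at a median of 0.098, and Arrdc1 in decile 3, at 0.10, so these 4 genes had differences below the median of their decile. Arrdc3 lay in a decile with a median of -0.050, Txnrd1 with -0.024, Txn2 with -0.059 and Txn1 with -0.051. Txn1 was above that median and the other 3 were below it. After quantile normalization, which evens the distributions of the arrays, the Txnip difference was -0.30 (SE 0.053), and after cyclic loess it was -0.30 (SE 0.054).

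**Figure D4:**
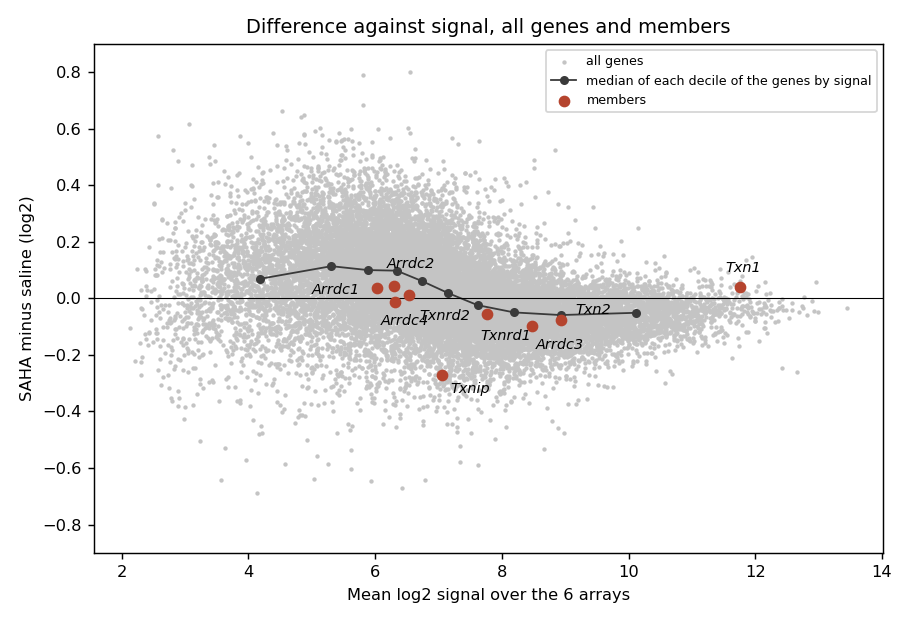
SAHA minus saline (log2) against mean log2 signal for all genes (grey), with the median of each decile of the genes by signal (line) and the 9 members (red). 1 gene beyond 0.9 on the vertical axis, Xist, is not drawn. Txnip, at -0.27, lies farthest from the line of medians among the members.

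The genes whose profile over the 6 arrays was closest to that of Txnip were Grp, Triap1, Sf3b6, Naf1 and Mtg1, out of 9675 candidates at or above the median signal. Likeness was measured as the root mean square difference of log2 values after each gene's own mean was subtracted, and it ranged from 0.027 for Grp to 0.040 for Mtg1. Grp, the neuropeptide gastrin-releasing peptide, averaged 7.05 ± 0.045 in SAHA and 7.36 ± 0.062 in saline (SD, n = 3 each). Its SAHA values, like those of Txnip, all lay below its saline values. Triap1, a regulator of apoptosis, averaged 7.63 ± 0.084 in SAHA and 7.89 ± 0.022 in saline (SD, n = 3 each). Sf3b6, a splicing factor subunit, averaged 7.29 ± 0.012 in SAHA and 7.57 ± 0.045 in saline. Naf1, an assembly factor of box H/ACA ribonucleoproteins, and Mtg1, a mitochondrial ribosome GTPase, differed by -0.21 and -0.31. None of the 5 passed in limma, with adjusted p from 0.12 to 0.182. The rule finds genes with a like difference between the groups, so these values describe its choice. Among the members, Txn2 was closest to Txnip, at 0.11, and Arrdc1 farthest, at 0.19.

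The genes around the thioredoxin system were read from 9 lists holding 111 gene symbols, 107 of them matched to measured genes. The lists had been written with earlier results known. Of the 107 genes, 0 passed the adjusted threshold, and 16 genes were at an unadjusted p under 0.05, 5 higher and 11 lower in SAHA. That is 15.0% of them, beside 17.4% of all genes. By direction, 11.9% of all genes were higher and 5.56% lower at that threshold, and 47.1% were lower at any p. The lowest adjusted p of the 107 genes was 0.158 in limma, and the values below describe genes that did not pass. Many of these genes are bright, and over all genes the median difference in deciles 8, 9 and 10 of signal was -0.050, -0.059 and -0.051.

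Ubiquitin ligases of the NEDD4 family and their adaptors, the partners of alpha-arrestins, had 10 of 11 genes lower in SAHA and a median difference of -0.068, with 0 at an unadjusted p under 0.05. The median was -0.014 after quantile normalization. Of all genes, 47.1% were lower in SAHA at any p, and 5.56% were lower at an unadjusted p under 0.05. Itch, a ligase that alpha-arrestins recruit, averaged 9.47 ± 0.057 in SAHA and 9.62 ± 0.071 in saline (SD, n = 3 each), at an adjusted p of 0.296 in limma. Its difference of -0.15 became -0.076 after quantile normalization. Nedd4l differed by -0.069 (SE 0.054), or by -0.014 after quantile normalization. Other genes with an arrestin fold had 7 of 9 lower and a median of -0.052, with 1 lower at an unadjusted p under 0.05, Vps26a. Vps26a, a subunit of the retromer coat, differed by -0.20 (SE 0.075), or by -0.11 without saline replicate 1 and SAHA replicate 3, and the beta-arrestin Arrb2 by -0.10 (SE 0.056).

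Thioredoxin-like proteins had 12 of 19 genes lower and a median of -0.070, or -0.022 on quantile-normalized values, and -0.0062 with both libraries that stood apart left out. There were 3 lower at an unadjusted p under 0.05 (Txnl1, Txndc9 and Txndc16) and 1 higher (Txndc8). The shares of all genes were 5.56% lower and 11.9% higher at that threshold, and 47.1% lower at any p. Txnl1, a thioredoxin-like protein of the proteasome, was at 9.14, 9.29 and 9.15 in SAHA, against 9.44, 9.34 and 9.47 in saline, a difference of -0.23 (SE 0.069). Txndc8, known from the testis, differed by 0.30 (SE 0.081) at a mean signal of 5.58 in SAHA and 5.28 in saline, and had the lowest adjusted p of the lists. After quantile normalization it differed by 0.19. Txndc9 and Txndc16 both differed by -0.19, and without SAHA replicate 1 by -0.11. Peroxiredoxins and other enzymes served by thioredoxin had 9 of 13 genes lower and a median of -0.068, which was -0.14 without SAHA replicate 2, -0.026 without SAHA replicate 1 and -0.034 after quantile normalization, with 1 lower at an unadjusted p under 0.05. It was Prdx3, the mitochondrial peroxiredoxin that Txn2 reduces, at 7.61, 7.92 and 7.87 in SAHA and at 8.34, 7.98 and 8.09 in saline. Its arrays spread more than those of Txnip, with a difference of -0.34 (SE 0.12) at an adjusted p of 0.212 in limma. Map3k5, the stress kinase ASK1 that thioredoxin holds inactive, differed by -0.14 (SE 0.062), or by -0.084 after quantile normalization.

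The parallel glutathione and glutaredoxin system had 10 of 13 genes lower and a median of -0.067, with 3 lower at an unadjusted p under 0.05. After quantile normalization the median was -0.026, and -0.11 with both libraries that stood apart left out. Of all genes, 47.1% were lower in SAHA at any p, and 5.56% were lower at an unadjusted p under 0.05. Glrx, the cytosolic glutaredoxin, and Gpx1, a glutathione peroxidase, differed by -0.19 (SE 0.072) and -0.18 (SE 0.072), or by -0.12 and -0.14 after quantile normalization. Glrx3 had a difference of -0.53 with an SE of 0.22 and overlapping groups, which became -0.25 without SAHA replicate 1 and -0.81 without saline replicate 1 and SAHA replicate 3, and is named here because it stands out in the plot of the lists. Genes of the NRF2 pathway, whose known targets include Txn1 and Txnrd1, had 13 of 16 lower and a median of -0.067, or -0.035 after quantile normalization, with 1 lower at an unadjusted p under 0.05. It was Ftl1, the ferritin light chain, at -0.20 (SE 0.083) with overlapping groups, and Gclm, a subunit of the enzyme that starts glutathione synthesis, differed by -0.068 (SE 0.055), or by -0.0088 after quantile normalization. The NRF2 list shares 4 genes with the glutathione and peroxiredoxin lists.

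The factors that transcribe Txnip and Arrdc4 in response to glucose, with glucose transporters and glycolytic genes, had 7 of 13 genes lower and 6 higher, with 2 on each side at an unadjusted p under 0.05. The median was -0.022, with a sign that turned after quantile normalization, at 0.022, and a range of -0.027 to 0.032 with 1 library left out. Slc2a1, the glucose transporter GLUT1 of the blood-brain barrier that Txnip is known to remove from the surface, was at 9.14, 9.09 and 9.15 in SAHA, against 8.81, 9.02 and 8.95 in saline. All SAHA values of Slc2a1 were above all saline values, as were those of 13.6% of all genes. The Slc2a1 difference was 0.20 (SE 0.070) at an adjusted p of 0.225 in limma, and 0.13 without saline replicate 1 and SAHA replicate 3. These are transcript values, and a link to Txnip was not tested. Hk2, a hexokinase, differed by 0.17 (SE 0.063), or by 0.067 after quantile normalization. The lower pair were Hk1, the main hexokinase of brain, at -0.15 (SE 0.060) and Pfkfb3, a regulator of glycolysis, at -0.15 (SE 0.056). The Hk1 difference was -0.088 as the mean of all its single-symbol probe sets, and -0.099 after quantile normalization. That of Pfkfb3 was -0.11 after quantile normalization. The factors themselves had overlapping groups for Mlxip (MondoA) and Mlxipl (ChREBP), at 0.034 (SE 0.092) and -0.039 (SE 0.13), and both signs turned when single libraries were left out. Mlx differed by -0.072 (SE 0.057), at an adjusted p of 0.526 in limma. Its SAHA values lay below its saline values, but the highest SAHA value, 7.136, was just under the lowest saline value, 7.14. Among all genes 10.4% had groups that did not overlap and were lower in SAHA. Inflammasome genes had 3 of 6 higher and a median of 0.020, or -0.019 after centring each array and between -0.022 and 0.066 with 1 library left out, with 2 higher at an unadjusted p under 0.05. These were Nlrp3, the sensor to which Txnip is known to bind, at a difference of 0.23 (SE 0.078), and the adaptor Pycard at 0.19 (SE 0.071). Both were dim, with Nlrp3 at 5.44 ± 0.064 in SAHA and 5.22 ± 0.12 in saline (SD, n = 3 each), and on quantile-normalized values the differences were 0.12 and 0.096. Casp1, named because it stands out in the same plot, differed by -0.32 (SE 0.16) with overlapping groups, by -0.15 without SAHA replicate 3 and by -0.066 without both libraries that stood apart. Of the genes that glucocorticoids raise, as they do Txnip in rodents, 7 of 11 were higher, with a median of 0.056, or -0.0050 without saline replicate 1 and SAHA replicate 3, and 0 were at an unadjusted p under 0.05. Per1, a clock gene, differed by 0.14 (SE 0.069), or by 0.084 without SAHA replicate 2. At an unadjusted p under 0.05, 11.9% of all genes were higher and 5.56% lower, and at any p 47.1% were lower.

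**Figure D5:**
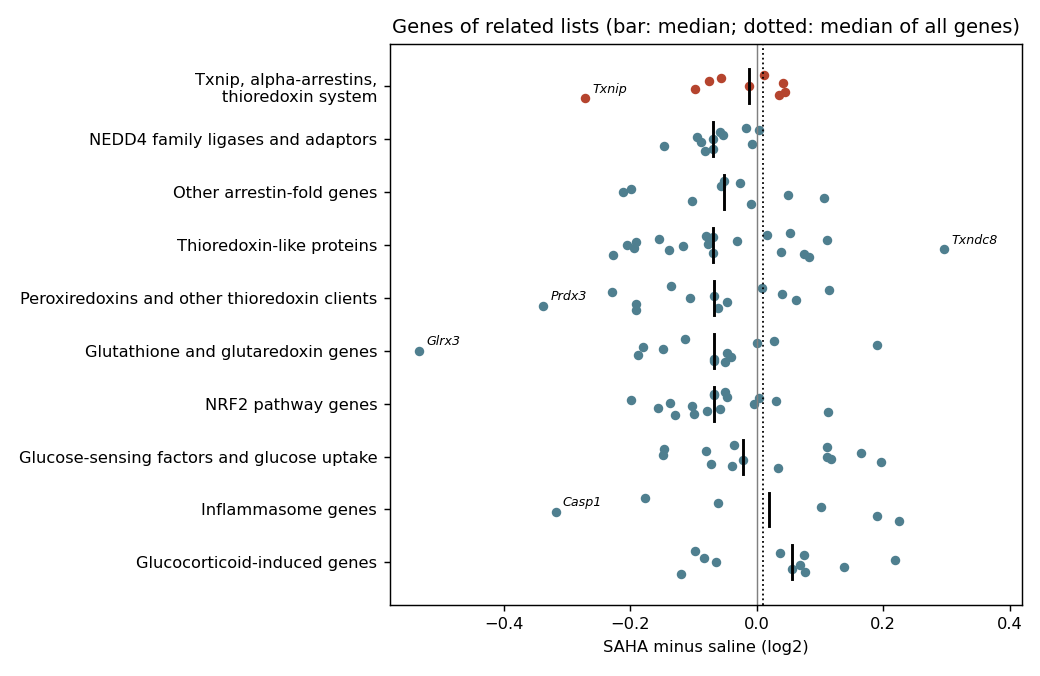
SAHA minus saline (log2) of each gene in the family and in the 9 related lists, with each list's median as a bar and the median of all genes, 0.011, as a dotted line. Names mark Txnip and the list genes beyond 0.29 in size, which are Txndc8, Prdx3, Glrx3 and Casp1.

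Txnip and Slc2a1 are known to be abundant in the cells of brain vessels, so markers of other cell types were read beside them. Of 9 endothelial markers, 6 were higher in SAHA, 1 of them (Slco1a4) at an unadjusted p under 0.05, with a median difference of 0.052. Their summed linear signal ranged from 1364 to 1452 in SAHA and from 1324 to 1365 in saline. Pericyte and smooth muscle markers had 5 of 8 higher, 1 of them (Pdgfrb) at an unadjusted p under 0.05, a median of 0.062 and sums from 1768 to 1817 in SAHA and from 1692 to 1810 in saline. Meningeal fibroblast markers had 4 of 7 higher, all 4 (Col1a1, Col1a2, Col3a1 and Igf2) at an unadjusted p under 0.05, a median of 0.20 and sums from 1283 to 1410 in SAHA and from 1235 to 1314 in saline. Blood cell markers had 4 of 5 higher, 3 of them (Slc4a1, S100a8 and S100a9) at an unadjusted p under 0.05, a median of 0.21 and sums from 424.5 to 458.0 in SAHA and from 395.5 to 416.8 in saline. Choroid plexus and ependymal markers had 6 of 7 higher, 1 of them (Ccdc153) at an unadjusted p under 0.05, a median of 0.14 and sums from 813.4 to 837.6 in SAHA, within the 724.9 to 953.4 of saline, where Ttr, the transthyretin of choroid plexus, was at 7.08, 6.49 and 8.06. Excitatory neuron markers had 3 of 6 lower and a median of 0.022, with 1 lower at an unadjusted p under 0.05 (Neurod6, -0.23). GABAergic interneuron markers had 4 of 7 lower and a median of -0.0052, with 1 lower (Vip, -0.20) and 1 higher (Lhx6, 0.18) at an unadjusted p under 0.05. Microglial markers had 3 of 7 lower and a median of 0.024, with 1 lower at an unadjusted p under 0.05 (Aif1, -0.21). Astrocyte markers had 5 of 7 lower and oligodendrocyte markers 6 of 7, at medians of -0.052 and -0.12, with 0 at an unadjusted p under 0.05. The summed signal ranged from 11344 to 11535 in SAHA and from 11177 to 11711 in saline for excitatory neurons, and from 2669 to 3495 in SAHA and from 2996 to 3154 in saline for oligodendrocytes. Of all genes, 17.4% were at an unadjusted p under 0.05 in limma, 11.9% higher and 5.56% lower. At any p, 47.1% of all genes were lower in SAHA. Over all genes the median difference in deciles 2, 3 and 4 of signal was 0.11, 0.10 and 0.098. Dim markers lay there, such as S100a8, S100a9, Slc4a1 and Col3a1, at signal percentiles 11.4, 15.9, 35.7 and 39.8. Col1a1, Col1a2 and Igf2 were brighter, at 56.1, 57.1 and 69.0. No marker is at 0 on this scale, and the part of these cell types in the values of the 9 genes was not tested.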

How the data were processed

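Per the submitters' processing notes, the arrays were processed with Affymetrix Expression Console and RMA, with no version named. The deposited values are log2 signals per probe set, background-corrected, normalized between arrays and summarised by RMA. Of 35556 probe sets, 21789 have 1 gene symbol, 1621 several and 12146 none in the platform annotation, and the brightest of a gene's single-symbol probe sets gave 19938 genes. Arrays give no read depth, and their number limits the precision: the median SE was 0.077. Groups came from sample titles. The difference, SAHA minus saline, was fitted to the deposited log2 values in limma 3.58.1 under R 4.3.3 (lmFit, eBayes), two-sided, without a filter or block, with Benjamini-Hochberg adjustment over all genes. The script was tested on simulated data with independent noise, which lack the link of difference to signal seen in these arrays. An exact permutation test of 3 against 3 cannot go below 0.1 and was not used.

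The members, lists and tests were chosen with earlier results of these data known. Named genes are the 9 members, from each list up to 2 genes of smallest p whose groups did not overlap, and the 5 genes closest to Txnip in profile, without predicted genes. Arrdc5, Glrx3, Casp1, Ftl1, Hk1, Pfkfb3, Txndc9, Txndc16, Mlxip, Mlxipl, Mlx and the marker genes were named after their values were seen, and alternatives for the pathway genes among them were added then. Prdx5, Prdx6 and G6pdx were not matched to a single-symbol probe set and were not analysed here. Dscr3, also listed and not matched, is an earlier symbol of Vps26c, which is in the same list and was measured. The 111 listed symbols therefore hold that gene under both names. Alternatives were other scalings, a signal filter, other probe set rules and variance models, array weights, a replicate block and libraries left out. Promoters came from RefSeq on GRCm38.p6. The labels do not say whether replicate numbers pair the samples, and the fit took them as unpaired. Deviations from the group means correlated at -0.10, -0.079 and 0.015 for same-numbered samples. For samples of different numbers they correlated between -0.084 and 0.15. With 3 arrays per group these values cannot settle whether samples were paired.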

Additional observations from a re-analysis of the deposited data

How the results depend on the processing

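The Txnip difference stayed negative in all 17 alternatives, between -0.31 and -0.24, and between -0.29 and -0.24 with 1 library left out. The count of genes past an adjusted p of 0.05, which is 0 on the deposited values, became 27 in limma with the dimmer genes left out (those under the median signal), 28 when eBayes took a trend in the variance, 31 when that trend was robust, and 0 in the other alternatives. None of the genes in the related lists was among those 27, 28 or 31. With the replicate number as a block in limma the count was 0, with a lowest adjusted p of 0.203. In that fit 3088 genes were at an unadjusted p under 0.05 and the Txnip difference was -0.27 (SE 0.072). The labels give same-numbered samples nothing in common but the number. The median difference of the 9 members, -0.012, was -0.051 after centring each array, -0.046 after quantile normalization, -0.044 after cyclic loess, -0.075 over the 5 members at or above the median signal and -0.050 without saline replicate 1 and SAHA replicate 3, and lay between -0.059 and 0.0016 with 1 library left out. The split of genes at an unadjusted p under 0.05 moved with scaling, from 2364 higher and 1108 lower to 1557 and 2024 after centring, 1340 and 1285 on quantile-normalized values and 1318 and 1300 on loess-normalized values. The Mlxip difference, 0.034, was -0.0049 after centring, -0.070 without saline replicate 1 and SAHA replicate 3, and between -0.027 and 0.11 with 1 library left out, while that of Mlxipl, -0.039, was -0.20 without those libraries and lay between -0.14 and 0.095 with 1 left out. The causes of these moves were not tested. With 3 arrays per group, the intervals of the members other than Txnip include 0, and dim probe sets such as Arrdc1 limit what can be read from them.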
